A study of Cercocebus atys with 16 samples.

Results

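Solute carriers (SLC) are membrane proteins that move ions, metals, vitamins, nucleosides, sugars and metabolites across membranes. The genes described here were all those whose name in the array files starts with SLC and a digit, leaving out the amino acid, glucose and lactate families SLC1A, SLC2A, SLC3A, SLC7A, SLC16A and SLC38A. That left 198 of 244 SLC gene names on the array, 32 of them SLC25A carriers and 166 of other families. A gene was tested where its brightest probe was well above background in at least 2 animals, which held for 133 genes, 28 SLC25A and 105 others, out of 23255 tested features in all. The other 65 genes were too dim to test: 51 were well above background in 0 animals and 14 in 1 animal, while 10 of the tested genes just met the rule with 2 animals, 8 had 3 and 115 had all 4. Of the tested genes, 124 met the rule in both conditions, 5 only in stimulated and 4 only in unstimulated RNA.

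The cells were T cells positive for CD3 and negative for both CD4 and CD8, called double-negative, isolated with magnetic beads from the blood of 4 sooty mangabeys (Cercocebus atys), all infected with SIV, the simian immunodeficiency virus. CD4 status was labelled low in FBR and FTV and normal in FNV and FKN. Cells of each animal were either given antibodies to CD3 and CD28 over 4 hours, which trigger the T cell receptor and its costimulator (stimulated), or not (unstimulated). Each animal had 4 arrays of 2 colours: stimulated against unstimulated RNA in both dye orientations, stimulated against itself and unstimulated against itself. No uninfected animal is among the samples analysed, and the labels used here give no age.

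A T cell that receives its activating signal leaves a resting state and within hours begins to import nutrients, ions and cofactors for growth. Carriers of the plasma membrane bring these in, carriers of the Golgi and endoplasmic reticulum pass nucleotide sugars to the glycosylation enzymes, and endosomal exchangers set the acidity of vesicles. The SLC25A family sits mostly in the inner membrane of the mitochondrion, where its members exchange nucleotides, citrate, dicarboxylates, acylcarnitines and cofactors between the matrix and the cytosol.

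The probes follow rhesus macaque sequence, and a base that differs in the mangabey can weaken binding. The first 30 of the 60 bases of 8 probes are shown because these probes give the leading rises and falls below and the largest SLC25A changes; the files give positions on rheMac2, a macaque build, and no exon or UTR annotation was used here.
SLC27A2 (chr7:28551961-28552020, plus strand): tttaggaaattatgcataccagtaaaggga
SLC29A1 (chr4:44153401-44153460, plus strand): ttgacagaaaccaggtgccttcagaggctc
SLC39A10 (chr12:59371554-59371613, plus strand): cacattgcattcaatcagctgtgattatgc
SLC6A8 (chrX:151805191-151805250, plus strand): agggacattcttactgtgctaaaaagccac
SLC43A2 (chr16:1373246-1373305, minus strand): tgggcgtgcttagaggggtgagttgatgtt
SLC9A9 (chr2:144599783-144599842, plus strand): ttgctttccaaacagaatctctggggcaca
SLC25A22 (chr14:597290-597347, minus strand): ctggtccacacagggaccctgcacaaacct
SLC25A20 (chr2:87609235-87609294, plus strand): gtaggaaggtcctttttacatactcttttc
Between the full probes of tested members the longest shared run was 12 bases, between SLC27A2 and SLC39A3, so no pair of these probes shares a long stretch.

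The quality of the arrays was judged over all spots. On the 12 arrays of FBR, FTV and FKN, 57.0% to 65.0% of the spots were well above background in a channel, and on the 4 arrays of FNV, scanned in an earlier batch, 33.3% to 64.8%. The 2 dye orientations of an animal correlated across features at 0.931 in FBR, 0.932 in FTV, 0.913 in FNV and 0.935 in FKN after the sign of one was turned. On self-self arrays, where both channels hold the same RNA, the median size of the log2 ratio of the members was 0.06 to 0.08. Single members went further, with a lowest ratio of -1.19 to -0.85 on each array and a highest of 0.20 to 0.46. The T cell markers CD3D, CD3E, CD3G, CD247, CD2 and CD5 were all tested, and the probe of CD4, the coreceptor removed in the isolation, was well above background in 8 of 8 channels of each condition. The median level of 8 monocyte markers was 9.55 log2 units in stimulated and 10.97 in unstimulated FNV cells, against 7.11 to 7.86 in the stimulated and 7.81 to 8.75 in the unstimulated cells of the other 3 animals. The median of 4 B cell markers was also highest in FNV, at 8.71 in stimulated and 9.36 in unstimulated cells, against 7.03 to 7.52 and 7.56 to 8.10. FNV had the lowest median of the 6 T cell markers, at 11.79 and 11.55, against 12.29 to 12.91 and 12.41 to 12.62, and of 4 erythroid markers, at 8.75 and 8.52, against 9.45 to 10.34 and 9.77 to 10.54. FNV therefore stands apart in scan batch, in spot brightness and in these 4 marker lists, and values without FNV are given where it decides a result. Other animals stood apart in other lists. The median of 3 NK cell markers was highest in FTV, at 8.73 in stimulated and 8.75 in unstimulated cells, against 6.22 to 7.07 and 6.29 to 7.48. That of 4 platelet markers was highest in FKN, at 7.87 and 8.33, against 7.41 to 7.62 and 7.37 to 7.68.

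Stimulation changed a part of the solute carriers in both directions. Of the 133 tested members, 23 rose, 33 fell and 77 did not pass, by limma's moderated test of the 4 per-animal log2 ratios at an adjusted p under 0.05. That is 42.1% of the members, against 40.2% of all tested features, so the share of changed members was near that of the array. Rises made up 17.3% against 19.2% of all features, and falls 24.8% against 21.0%. All members carry a gene name. Of the tested features with a gene name 47.1% were called, 22.5% rising and 24.6% falling. Beside these, members changed and rose somewhat less often and fell as often. The median log2 ratio of the members was -0.01, as it was for all features. Changes of at least 2-fold were called in 14 members (10.5%), 8 higher and 6 lower, against 6.82% of all features and 9.66% of the tested features that carry a gene name. All 56 changed members had the same sign in 4 of 4 animals, as did 83 of the 133 tested members. The test of the mean of these 4 ratios favours genes of the same sign, so the count among changed members is no added evidence. In bulk RNA of this kind, fewer cells expressing a gene and less RNA per cell cannot be told apart.

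**Figure D1:**
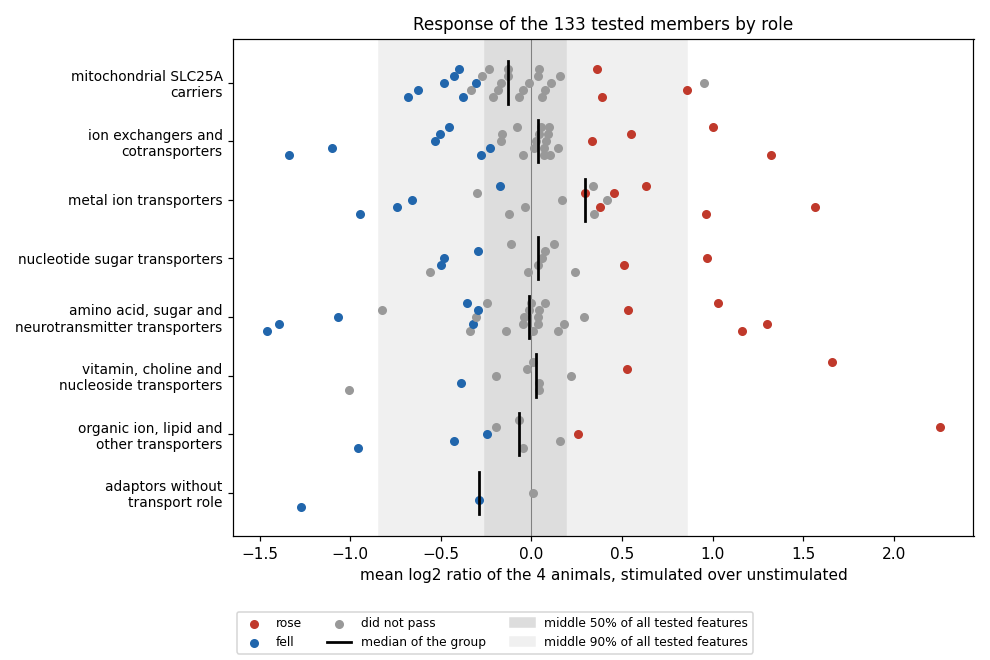
Mean log2 ratio (stimulated over unstimulated, 4 animals) of each of the 133 tested members, by role; each point is 1 gene, the black bars are group medians and the grey bands hold the middle 50% and 90% of all tested features. Members that rose and fell stand in most role groups, the largest rise is SLC27A2 at 2.25, and no SLC25A member that changed passes 1 log2 unit in either direction.

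The sizes depended on the animal. FNV had the smallest ratio of the 4 animals in 34 of the 56 changed members, FKN in 10 and FBR and FTV in 6 each, while over all 9347 changed features FNV had the smallest in 53.1%. The median size over the changed members was 0.54 log2 units in FBR, 0.61 in FTV, 0.40 in FNV and 0.63 in FKN. Without FNV, 34 members rose and 39 fell, with 50.5% of all features called. Without one of the others fewer changed, among the members as on the whole array. There were 11 and 17 without FBR (22.9% of all features called) and 16 and 21 without FTV (26.3%). Without FKN there were 11 and 19 (21.5%). Measured against technical error, the ratio of every animal lay beyond all 8 self-self ratios of its own probe in 44 members (33.1%), 40 of them among the 56 changed, against 28.8% of all features. The stimulated and unstimulated levels of the 4 animals did not overlap in 22 members (16.5%), 21 of them changed, against 15.4% of all features. Levels are log2 intensities after normalisation between arrays, each the mean of the 4 channels that hold an animal's RNA of one condition. They use the self-self arrays as well, so a difference of levels need not equal the ratio, and they are compared only within a probe. Untested genes of the amino acid, glucose and lactate families had mean unstimulated levels of 5.92 to 6.19. Near this floor the size of a ratio is less certain. Rises that started close to it included SLC29A1 (unstimulated 6.18 to 7.09), SLC6A3 (6.52 to 6.63), SLC9A7 (6.32 to 6.87) and SLC41A1 (6.44 to 6.78).

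Among carriers of organic ions and lipids, SLC27A2, which activates and takes up long and very long chain fatty acids, showed the largest rise of all members. Its log2 ratio was 2.31 in FBR, 2.56 in FTV, 1.95 in FNV and 2.20 in FKN. The 4 animals lay close together and far outside the self-self ratios of the probe, which ran from -0.26 to 0.09. The mean was 2.25 ± 0.25 (SD, n = 4; 4.77-fold, limma adjusted p = 0.000549). Stimulated levels were 9.93, 9.98, 10.40 and 9.52 in FBR, FTV, FNV and FKN, against unstimulated levels of 7.69, 7.45, 8.42 and 7.44, so every stimulated sample lay above every unstimulated one. In the same group SLC22A17, a receptor for the iron-binding protein lipocalin-2 despite its place in a transporter family, fell by 0.96 ± 0.36 (SD, n = 4; limma adjusted p = 0.0057). Of the 9 tested members of the group, 2 rose, 3 fell and 4 did not pass.

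Carriers of nucleosides, vitamins and choline held the rise next in size. SLC29A1, the equilibrative nucleoside transporter of the plasma membrane, had log2 ratios of 1.39 in FBR, 2.18 in FTV, 1.23 in FNV and 1.83 in FKN. All 4 were well outside its self-self range of -0.09 to 0.19, and the mean was 1.66 ± 0.43 (SD, n = 4; 3.16-fold, limma adjusted p = 0.00178). Stimulated levels of 7.90 to 8.36 did not overlap the unstimulated levels of 6.18 to 7.09. A dimmer probe of the gene gave 0.31 (adjusted p = 0.0572, every probe tested), so the size of the change rests on the probe. SLC29A3, a nucleoside transporter of lysosomes, had -0.43 in FBR, -0.28 in FTV, -2.41 in FNV and -0.91 in FKN, a mean of -1.01 ± 0.98 that did not pass (limma adjusted p = 0.0818). FNV was the lowest by a wide margin, and its unstimulated level of 12.17 stood above the 9.71 to 10.27 of the other animals. Without FNV the mean was smaller, -0.54, and passed (limma adjusted p = 0.029). The fall of SLC44A2, a choline transporter-like protein, was small (-0.39 ± 0.19, limma adjusted p = 0.0208) and was lost without FBR, FTV or FKN (adjusted p of 0.0505 to 0.0943). Of the 10 tested members of the group 2 rose, 1 fell and 7 did not pass. The biotin and pantothenate carrier SLC5A6 is counted by its subfamily in another group, below.

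Among the 7 role groups of carriers, metal ion transporters had the highest share changed: 6 of 17 tested members rose, 4 fell and 7 did not pass (58.8%, against 40.2% of all features). Carriers of organic ions and lipids were close, at 55.6%. With 17 genes, in a group singled out as the highest of 7, this share says little. The median log2 ratio of the metal ion transporters was 0.29, with animal medians of 0.32 in FBR, 0.26 in FTV, -0.09 in FNV and 0.31 in FKN, so FNV differed in sign from the others. SLC39A10, a zinc importer of the plasma membrane, had 1.49 in FBR, 2.01 in FTV, 0.99 in FNV and 1.77 in FKN, and a mean of 1.56 ± 0.43 (SD, n = 4; 2.96-fold, limma adjusted p = 0.00215). Its stimulated levels of 8.10 to 8.73 lay above all unstimulated levels, which were 6.67 to 7.36. SLC30A3, which loads zinc into vesicles, had 0.94 in FBR, 1.88 in FTV, 0.20 in FNV and 0.84 in FKN. Its FNV value lay inside the self-self range of -0.09 to 0.23, and the mean of 0.97 ± 0.69 (limma adjusted p = 0.0372) lost its call in 6 of 16 alternatives, with an adjusted p of up to 0.130; these included the fits without FBR (0.119), without FTV (0.0541) and without FKN (0.109). SLC39A11, another member of the zinc importer family, fell by 0.74 ± 0.10 (limma adjusted p = 0.00109) with ratios of -0.59 to -0.82.

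The magnesium transporter family SLC41 moved both ways. SLC41A1, a magnesium exporter of the plasma membrane, rose by 0.63 ± 0.28 (SD, n = 4; limma adjusted p = 0.0115), with 0.71 in FBR, 0.89 in FTV, 0.22 in FNV and 0.71 in FKN. Without FBR or FKN its adjusted p was 0.0599 or 0.0581. SLC41A3 fell by 0.66 ± 0.07 (limma adjusted p = 0.00105), with -0.76 in FBR and -0.62 to -0.63 in the other 3 animals. SLC40A1, the iron exporter ferroportin, had -1.10 in FBR, -0.17 in FTV, -1.59 in FNV and -0.91 in FKN. The mean was -0.95 ± 0.59 (limma adjusted p = 0.0253), the FTV value lay within the self-self range of -0.20 to 0.15, and the call was lost in 6 of 16 alternatives (adjusted p of up to 0.414), among them the fits without FBR (0.102) and without FKN (0.0900). Its level was highest in FNV, at 8.26 in stimulated and 9.94 in unstimulated cells, against 6.80 to 7.55 and 7.62 to 7.92 in the other animals.

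The monocyte markers moved in the same direction as SLC40A1 and SLC29A3. Of 8 tested markers 0 rose, 4 fell and 4 did not pass, with medians of -0.37 in FBR, -0.47 in FTV, -1.44 in FNV and -0.79 in FKN, and the median of 4 B cell markers was -0.63, with 1 rising and 2 falling. SLC45A3, a sugar carrier family member known as prostein, had its largest fall in FNV too, at -2.04, against -0.51 in FBR, -0.20 in FTV and -0.55 in FKN, and did not pass (-0.82 ± 0.82, SD, n = 4; limma adjusted p = 0.0892). Without FNV the mean was -0.42 and passed (limma adjusted p = 0.0174). Its FNV levels were 9.05 in stimulated and 11.10 in unstimulated cells, against 6.87 to 7.68 and 7.11 to 8.23 in the other 3 animals. The part of monocyte RNA in these 3 genes was not tested.

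**Figure D2:**
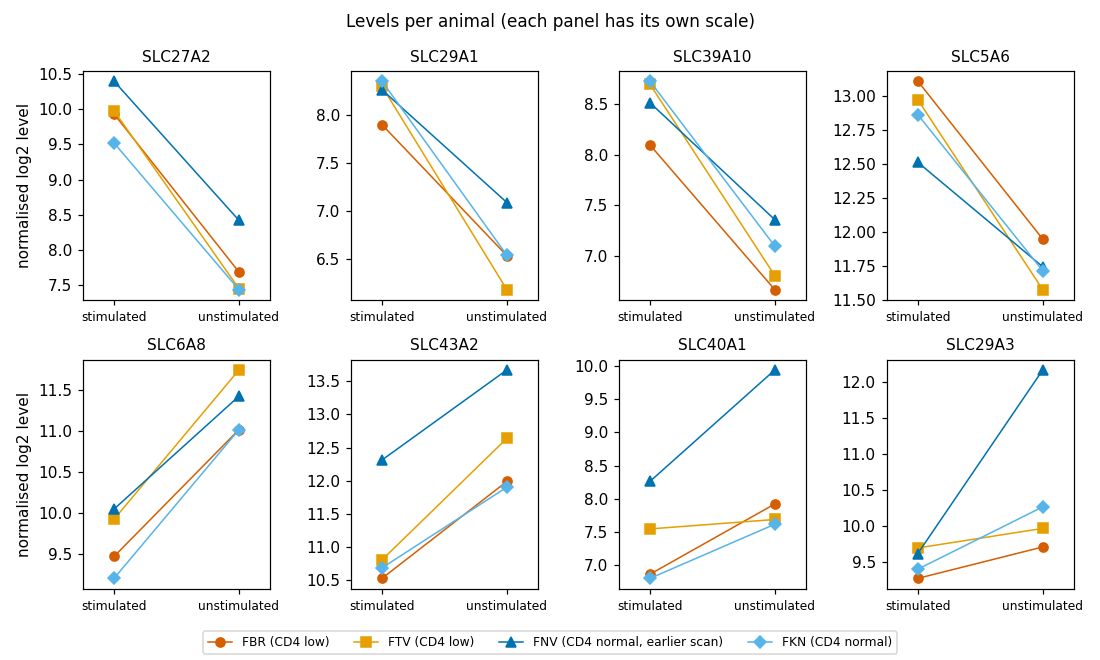
Normalised log2 level in stimulated (left of each panel) and unstimulated cells (right) for 8 members, 1 line per animal; each panel has its own scale, since levels of different probes are not compared. In the upper row and in SLC6A8 the levels of the 2 conditions do not overlap. FNV has the highest unstimulated level in SLC27A2, SLC29A1, SLC39A10, SLC43A2, SLC40A1 and SLC29A3, by the widest margin in SLC40A1 and SLC29A3.

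The subfamilies grouped as transporters of amino acids, sugars and neurotransmitters held both strong rises and the largest falls. Of 27 tested members, 4 rose, 6 fell and 17 did not pass (37.0%). Role groups go mostly by subfamily, so this one also counts SLC43A3 and SLC5A6, which rose and carry purine nucleobases and vitamins. SLC6A8, the creatine transporter, had -1.41 in FBR, -1.60 in FTV, -1.22 in FNV and -1.61 in FKN. This was the largest fall of all members, with a mean of -1.46 ± 0.18 (SD, n = 4; 2.75-fold lower, limma adjusted p = 0.000624). Its stimulated levels of 9.20 to 10.05 lay below all unstimulated levels, which were 11.01 to 11.74. A dimmer probe also fell, by 0.45. SLC43A2, a carrier of large neutral amino acids such as leucine, had -1.44 in FBR, -1.79 in FTV, -1.19 in FNV and -1.14 in FKN, and a mean of -1.39 ± 0.30 (limma adjusted p = 0.0012). Its levels of the 2 conditions overlapped, with FNV high in both, at 12.31 in stimulated and 13.67 in unstimulated cells, and its dimmer probe fell by 0.41.

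SLC43A3 of the same family, a carrier of purine nucleobases, rose. It had 1.60 in FBR, 0.87 in FTV, 0.82 in FNV and 1.90 in FKN, a mean of 1.30 ± 0.54 (SD, n = 4; limma adjusted p = 0.00714), so the animals fell into no order by CD4 status. SLC5A6, the sodium-dependent carrier of biotin and pantothenate, rose by 1.16 ± 0.24 (limma adjusted p = 0.00126), with stimulated levels of 12.51 to 13.11 above all unstimulated levels, 11.58 to 11.95. SLC6A3, the dopamine transporter, rose by 1.03 ± 0.45 (limma adjusted p = 0.00884), with 1.16 in FBR, 1.24 in FTV, 0.36 in FNV and 1.34 in FKN. Its stimulated levels of 7.48 to 7.86 did not overlap its unstimulated levels of 6.52 to 6.63, which lie close to the floor given above.

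The probe named SLC18A1, after a vesicular monoamine transporter, fell by 1.06 ± 0.36 (SD, n = 4), with a limma adjusted p of 0.0041. The files describe it as vesicle amine transport protein 1 and place it at chr16:53145655-53145714. The other tested probe of that name, described as a member of solute carrier family 18, lies at chr8:20037321-20037380 and had 0.08 (adjusted p = 0.269, every probe tested). Name, description and position thus disagree for the probe that fell, and its change is not read here as one of the monoamine transporter.

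Ion exchangers and cotransporters numbered 26 tested members, of which 4 rose, 7 fell and 15 did not pass (42.3%). SLC9A9, a sodium-proton exchanger of endosomes, had -1.51 in FBR, -1.48 in FTV, -0.66 in FNV and -1.70 in FKN, and a mean of -1.34 ± 0.46 (SD, n = 4; 2.53-fold lower, limma adjusted p = 0.00411). Its stimulated levels of 9.92 to 10.17 lay below all unstimulated levels, 10.90 to 11.69, while its 2 dimmer probes gave -1.38 and -0.29. SLC9A7, an exchanger of the trans-Golgi network, moved the other way, with 1.43 in FBR, 1.85 in FTV, 0.40 in FNV and 1.61 in FKN, a mean of 1.32 ± 0.64 (limma adjusted p = 0.0114). The FNV ratio was under 1 log2 unit while the other 3 were above it, and 3 of 16 alternatives ended the call (adjusted p of up to 0.0874), 2 of them the fits without FBR (adjusted p = 0.0575) and without FKN (0.0561). Without FNV the mean was 1.63.

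SLC20A2, a sodium-phosphate cotransporter, rose by 1.00 ± 0.15 (SD, n = 4; limma adjusted p = 0.000887), and its ratios of 0.86 to 1.22 were among the most even of the leading genes. SLC9A3R1 carries an SLC name but no transport role: it is the NHERF1 adaptor, which ties membrane proteins to the cytoskeleton. It fell by 1.27 ± 0.31 (limma adjusted p = 0.00167), and of the 3 tested adaptors counted among the 133 members 2 fell and 1 did not pass.

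Of 13 tested nucleotide sugar transporters and their relatives, 2 rose, 3 fell and 8 did not pass (38.5%, near the 40.2% of all features). None changed by 2-fold or more, which 6.82% of all features did, so with 13 genes this count says little. SLC35D1, which carries UDP-glucuronic acid and UDP-N-acetylgalactosamine into the endoplasmic reticulum, had 1.02 in FBR, 1.27 in FTV, 0.44 in FNV and 1.14 in FKN, and a mean of 0.97 ± 0.37 (SD, n = 4; limma adjusted p = 0.00593). Stimulated levels of 8.14 to 8.49 lay above unstimulated levels of 6.94 to 7.75. SLC37A4, the glucose-6-phosphate translocase of the endoplasmic reticulum, fell by 0.50 ± 0.16 (limma adjusted p = 0.00672), with ratios of -0.26 to -0.64.

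**Figure D3:**
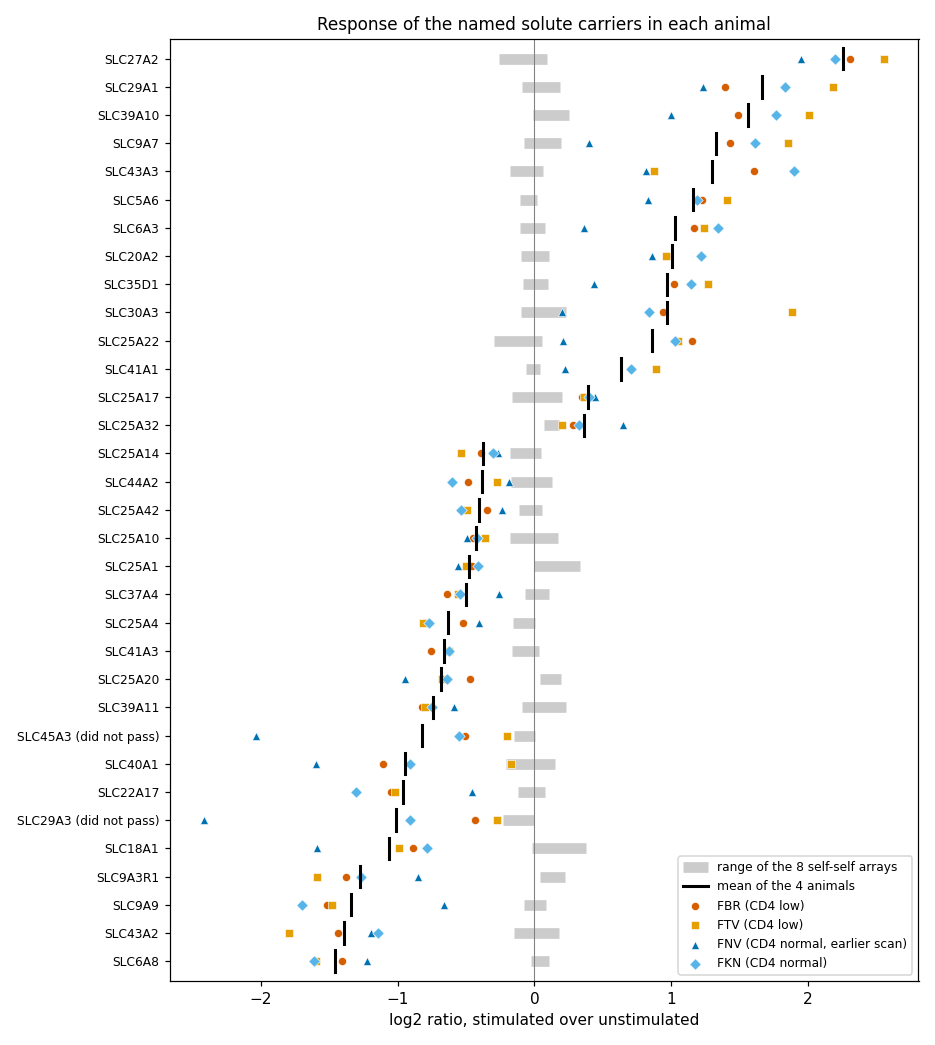
Log2 ratio (stimulated over unstimulated) of 33 of the 35 members chosen by the naming rule, largest rise at the top; symbols are the 4 animals, black bars their means, and grey bars the range of the 8 self-self arrays for the same probe. FNV (triangles) is nearest to 0 in most rises. Among genes with a mean below 0 it is the lowest in SLC29A3, SLC45A3, SLC40A1, the probe named SLC18A1, SLC25A20, SLC25A1 and SLC25A10.

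The mitochondrial SLC25A carriers changed by amounts like those of the whole array. The median size of their log2 ratio was 0.22, against 0.26 for the other members and 0.23 for all features. Of 28 tested SLC25A genes, 3 rose, 7 fell and 18 did not pass, against 20, 26 and 59 of the 105 other members. The share changed was 35.7% in SLC25A and 43.8% in the others, against 40.2% of all features, of which 19.2% rose and 21.0% fell, so 7 falling genes of 28 is near the share of the array. Among tested features with a gene name, 47.1% were called, 22.5% rising and 24.6% falling. None of the 10 changed SLC25A genes reached 2-fold, against 14 of the 46 changed others, and 6.82% of all features were called at 2-fold or more. With 28 tested SLC25A genes this count says little, and it did not hold in the authors' deposited table, as given below. The median log2 ratio was -0.13 for SLC25A, with -0.06 in FBR, -0.19 in FTV, -0.09 in FNV and -0.11 in FKN, and 0.01 for the others, with 0.00 in FBR, 0.03 in FTV, -0.06 in FNV and 0.00 in FKN. The SLC25A median was below that of the other members in every animal. The difference between the groups of genes was not tested, since genes of one family are no replicates, and without a filter on dim probes the SLC25A median was -0.06. The middle 50% of SLC25A ratios ran from -0.31 to 0.06, against -0.30 to 0.18 for the others and -0.26 to 0.19 for all features.

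Falls included carriers of fatty acid, nucleotide and citrate exchange. SLC25A20, the carnitine-acylcarnitine carrier that admits fatty acids for oxidation, had -0.47 in FBR, -0.68 in FTV, -0.95 in FNV and -0.64 in FKN, a mean of -0.68 ± 0.20 (SD, n = 4; 1.61-fold lower, limma adjusted p = 0.0036). Its self-self ratios ran from 0.04 to 0.20, so all 4 animals lay outside them. FNV had the largest fall and the highest unstimulated level, 10.32 against 8.96 to 9.16 in the other animals, as in the genes set beside the monocyte markers. The part of monocyte RNA in SLC25A20 was not tested. SLC25A4, the adenine nucleotide translocase that exchanges ATP for ADP, fell by 0.63 ± 0.20 (limma adjusted p = 0.00455), with stimulated levels of 9.49 to 9.85 below all unstimulated levels, 9.90 to 10.58. SLC25A1, the citrate carrier, had -0.46 in FBR, -0.50 in FTV, -0.56 in FNV and -0.41 in FKN, and its mean of -0.48 ± 0.06 (limma adjusted p = 0.00235) had one of the smallest spreads among the named genes. SLC25A10, the dicarboxylate carrier, was as even, at -0.43 ± 0.05 (limma adjusted p = 0.00309).

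SLC25A42, a coenzyme A carrier, and SLC25A14, an uncoupling protein relative, fell by 0.40 ± 0.14 and 0.37 ± 0.12 (SD, n = 4; limma adjusted p = 0.00962 and 0.00977). Without FKN the adjusted p of SLC25A42 was 0.0522, and without FBR that of SLC25A14 was 0.0537. The files place their probes over 3317 bases of chromosome 19 and 991 bases of the X chromosome, more than the 60 bases of the probe. In the authors' deposited table SLC25A42 had a mean of -1.04 and SLC25A10 of -0.76, both over 1.5 times the size computed here. SLC25A22 had 1.56 there, and SLC25A27, which did not pass here at -0.17, had -1.51. SLC25A22, SLC25A42 and SLC25A27 passed the test there at over 2-fold, so the absence of 2-fold SLC25A changes depends on the processing.

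Of the 3 SLC25A genes that rose, SLC25A22, a mitochondrial glutamate carrier, changed most, with 1.15 in FBR, 1.05 in FTV, 0.21 in FNV and 1.03 in FKN. The 3 animals of the later batch stood together, and FNV lay within the size of the probe's self-self ratios, which ran from -0.30 to 0.05. The mean was 0.86 ± 0.44 (SD, n = 4; limma adjusted p = 0.0144), the unstimulated signal was well above background in 6 of 8 channels, and the call was lost in 6 of 16 alternatives, with an adjusted p of 0.0675 without FBR, 0.0589 without FTV and 0.0680 without FKN. Without FNV the mean was 1.08 (adjusted p = 0.000806). A dimmer probe of the gene rose by 0.53. SLC25A17 rose by 0.39 ± 0.04 (limma adjusted p = 0.0037), with 0.35 to 0.44 over the animals; it is a carrier of the peroxisome rather than the mitochondrion, where it moves coenzyme A and related cofactors. SLC25A32, a folate and flavin carrier of the mitochondrion, rose by 0.36 ± 0.19 (limma adjusted p = 0.0256), with FNV the highest at 0.65 and the others at 0.20 to 0.32, and its call was lost in 6 of 16 alternatives, among them the fits without FBR (0.0806) and without FKN (0.0906).

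**Figure D4:**
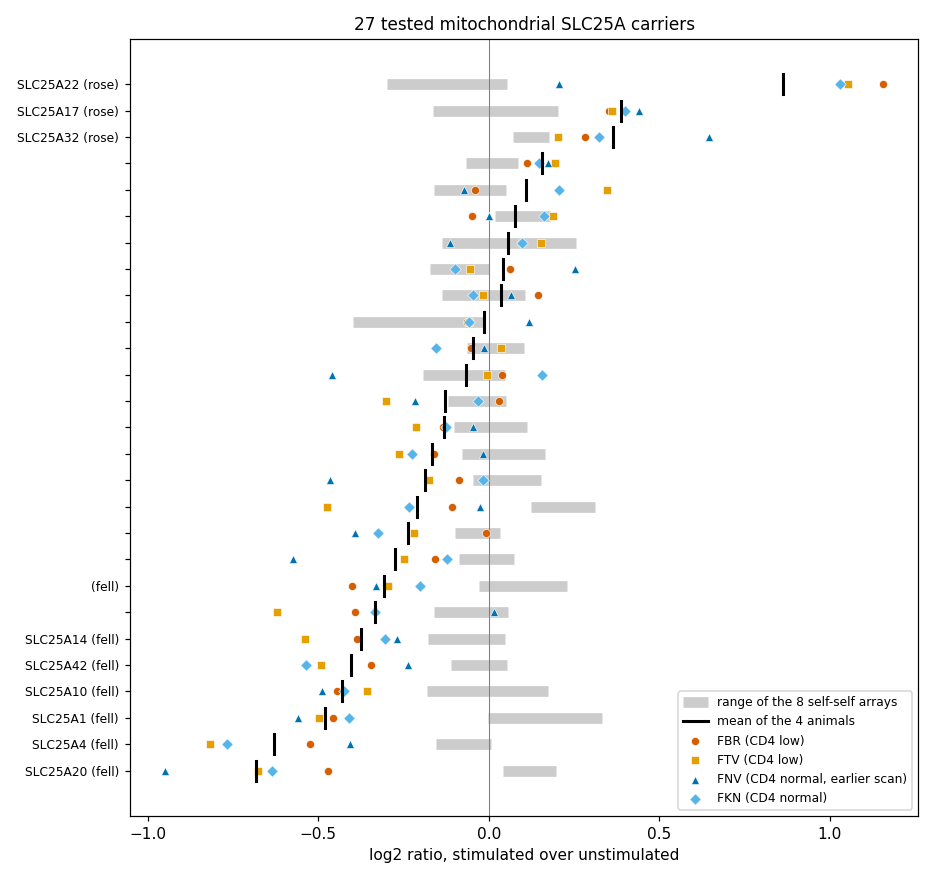
Log2 ratio (stimulated over unstimulated) of 27 of the 28 tested SLC25A carriers, with names for those described in the text; symbols are the 4 animals, black bars their means and grey bars the range of the 8 self-self arrays. Most means lie left of 0, the 7 that fell lie between -0.68 and -0.31, and FNV is apart in SLC25A22.

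Transporters outside the SLC25A list were set beside it. Of 9 tested mitochondrial transporters with other names, 4 of which (UCP2, UCP3, MTCH1 and MTCH2) belong to the SLC25 family all the same, 2 rose, 2 fell and 5 did not pass, with a median of 0.01: SFXN4, of the sideroflexins, rose by 1.31 ± 0.41 (SD, n = 4; limma adjusted p = 0.00311) and MTCH1, an outer membrane protein, fell by 0.73 ± 0.16 (limma adjusted p = 0.00203). Of 7 tested ion pumps, 2 rose, 3 fell and 2 did not pass, with the calcium pump ATP2A3 at -0.66. Of 27 tested genes of the amino acid, glucose and lactate families, 3 rose, 5 fell and 19 did not pass (29.6%), led by the lactate carrier SLC16A1 at 2.20 ± 0.35 and, downward, by its relative SLC16A7 at -1.04 ± 0.45. Of 7 tested organic anion transporters SLCO, 2 rose, 2 fell and 3 did not pass, with SLCO5A1 at 0.59 and SLCO3A1 at -0.65.

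Several probes per gene allowed a further check. Of 35 members with more than 1 tested probe, 17 had a changed main probe, and in 9 of these every other probe passed in the same direction. In 14 of the 17 another probe's log2 value differed by over 1.5 times, and in 0 did a probe pass in the opposite direction. Where the main probe did not pass, a dimmer probe still did in some genes. These were SLC25A3 (0.59), SLC39A9 (0.25 and 0.65), SLC35C1 (-0.46), SLC15A4 (0.35) and SLC25A27 (-0.17), all counted here as not passed. The authors' deposited table, with log2 ratios of stimulated over unstimulated per animal, matched 108 tested members by identifier. Of the 49 of these that changed here, 49 had the same sign in that table, and its ratios were larger, with a slope of 1.36 and a correlation of 0.92 over the 108 genes, which share the arrays and are no independent check. SLC29A1 had a mean of 2.77 there and SLC39A10 of 2.29.

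Between animals with low and normal CD4 status, no member differed past the test. By limma, 0 of 133 members passed for the response, 0 for the unstimulated level and 0 for the stimulated level, as did 0 of 23255 features in each (0%). At an unadjusted p under 0.05 there were 2 members for the response (1.5%, against 2.13% of all features), 0 for the unstimulated level (1.70% of all features) and 2 for the stimulated level (1.5%, against 2.00%). The 2 for the response, named because they were few and after their values were seen, were SLC50A1, a sugar transporter, with 0.10 in FBR and 0.25 in FTV, against -0.28 in FNV and -0.25 in FKN, and SLC37A2, with -0.22 and -0.01 in the animals of low status, against -1.41 and -0.59 in FNV and FKN. Those for the stimulated level were SLC45A3 (low minus normal -1.41) and SLC19A2, a thiamine transporter (-0.77). The unstimulated level of SLC37A2 was 9.55 in FNV, against 6.80 to 7.12 in the other animals, FKN among them. That of SLC19A2 was 9.73 in FNV, against 8.01 to 8.57. The smallest adjusted p over the members was 0.821.

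Values of the 2 CD4 groups did not overlap in 37 members for the response, against 26.8% of all features, in 45 for the unstimulated level, against 34.3%, and in 40 for the stimulated level, against 34.2%. The unstimulated difference, low minus normal, ran from -2.35 for SLC45A3, whose level was 11.10 in FNV, to 1.54 for SLC43A3, with 8.79 in FBR and 10.68 in FTV, against 7.97 in FNV and 8.42 in FKN. With 2 animals a group, and FNV alone in the earlier scan batch, CD4 status and scan batch cannot be fully told apart. Without FKN, which leaves FNV as the only animal of normal status and assumes that it varies like the others, 23 members passed for the stimulated level, with 20.3% of all features passing; without any of the other animals 0 members passed.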

How the data were processed

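For each of 16 two-colour arrays the authors deposited raw scanner files, in which, per the file headers, version 10.7.3.1 of Agilent Feature Extraction wrote linear spot and background intensity. Per the file headers these also give the software's log10 ratio (red divided by green) and its flags for outliers and for signal well above background. A deposited table gives the authors' log2 ratio per animal; its background method and centring are not given in the sources used here.

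Intensities were corrected with normexp (offset 50), normalised by loess within arrays and by Aquantile between arrays for levels, in R 4.3.3 with limma 3.58.1. Local backgrounds above 3 times the channel median, on at most 58 spots of 3 self-self arrays, were replaced by that median. The 2 ratio arrays of an animal hold the same 2 RNAs and were averaged after one sign was turned, so n = 4 animals, whose number limits the precision. For 1 FNV ratio array the labels disagree on channel 2, stimulated in the title but not in the characteristics; the title was followed. A probe was well above background in an animal where both ratio arrays said so for one condition. The brightest probe stood for each gene name, and names come from the newer of 2 annotation editions, which differ in 8125 of 43803 spots; 12 spots carry a member's name only in the older one.

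In limma, lmFit and eBayes tested the mean response against 0, and CD4 status as low minus normal, and p-values were adjusted over all tested features by Benjamini-Hochberg. Stimulated and unstimulated RNA are paired by animal, as the labels give. Named genes were the 12 largest rises and falls past the test, the largest of each role group, 6 SLC25A changes either way and the 3 largest that did not pass; 2 of these 35 genes are not reported here. Members and lists were chosen with earlier results of these data known. Figures were drawn with Python 3.11.15 and matplotlib 3.10.9.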

Additional observations from a re-analysis of the deposited data

Results flagged for a closer look

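The response of SLC25A22 had 1 animal far from the others: FNV had a log2 ratio of 0.21, and the gap to its nearest neighbour was 0.870 of the whole range of the 4 animals. For SLC41A3 it was FBR, at -0.76, with a gap of 0.962 of the range, which for this gene is narrow. Both exceed Dixon's critical value for 4 samples, as did 2 of the 37 values examined in this way, and chance gives about 1 in 20. FNV was scanned in the earlier batch; the part of the batch in these values was not tested.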

How the results depend on the processing

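Of 557 values of the 35 genes chosen by the naming rule under the alternatives, 0 reversed, 62 lost the call and 7 gained one, and no change called here was called in the opposite direction under any alternative. SLC27A2, SLC29A1, SLC39A10, SLC5A6, SLC6A3, SLC20A2, SLC35D1, SLC6A8, SLC9A9 and the probe named SLC18A1 kept their calls throughout. Leaving out 1 animal at a time gave 11 to 34 rising and 17 to 39 falling members, 1 to 4 and 5 to 9 for SLC25A, 10 to 30 and 12 to 30 for the others, and 0 to 23 members for CD4 status in stimulated cells. Median centring of the arrays gave 12 rising and 17 falling members, 1 and 4 of them SLC25A and 11 and 13 others, with 17.9% of all features called, against 40.2%. With scan batch as a term, 5 SLC25A genes rose and 12 fell, with 50.9% of all features called. With self-self arrays in place of ratio arrays and the animal as a replicate block, 16 members outside SLC25A fell, with 29.7% of all features called. With the local background as deposited, an alternative added after the data were seen, 17 fell (29.8%). With no replicate block the self-self arrays gave 7 rising and 4 falling members, 0 and 0 of them SLC25A and 7 and 4 others. That fit called 7.87% of all features, so with 28 SLC25A genes the 0 says little. With the pairing by animal 19 members rose and 22 fell. Without the pairing the median of the others was -0.063, as it was with it, and -0.045 with the background as deposited. The SLC25A median was -0.20 with the scanner software's ratios, -0.20 in the authors' deposited table and -0.064 with no filter on dim probes. The cause of these shifts was not tested. FNV's other ratio array alone gave 52 of the 56 calls, and signal over background left 65 members untested.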
